A study of Mus musculus with 16 samples.

Results

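The 31 genes described here make, carry, export and sense cholesterol or control its uptake. They form a list of symbols on cholesterol handling, and each symbol was mapped to its Ensembl gene ID in the deposited expression table, which holds 33289 IDs. All 31 were found, and all 31 passed the filter on low values that 17349 genes passed. By role they comprise 18 enzymes of cholesterol synthesis, 5 genes of the SREBP regulatory system (Srebf1, Srebf2, Scap, Insig1, Insig2), the sterol carrier Stard4, the oxysterol receptors Nr1h2 and Nr1h3, the exporters Abca1 and Abcg1 with their acceptor Apoe, the receptor-degrading ligase Mylip, and the neuronal sterol hydroxylase Cyp46a1.

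RNA was sequenced from 16 hemi-brain samples of C57BL/6J mice aged 3 to 4 months, perfused with PBS and sampled 8 h after an injection. The 4 groups, with 4 libraries each, were wild type with saline, Lcn2-/- with saline, wild type with LPS, and Lcn2-/- with LPS, while the series design speaks of 3 or 4 replicates. LPS (lipopolysaccharide) is a bacterial cell-wall component that sets off systemic inflammation, and Lcn2 encodes lipocalin-2, a secreted iron-siderophore binding protein of the acute phase. All groups share the strain, the tissue and the time point; no source used here gives the dose, the route, the sex or the design of the Lcn2 allele. The labels say only that these are separate samples, and a p-value here measures no more than the spread among them.

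The brain makes nearly all of its own cholesterol, because lipoproteins of the blood do not cross the blood-brain barrier. Synthesis runs from acetyl-CoA through mevalonate, farnesyl diphosphate, squalene and lanosterol to cholesterol. When sterols are low in the endoplasmic reticulum, SCAP escorts SREBP2 to the Golgi, where it is cut and then activates the enzyme genes, while INSIG proteins hold SCAP back when sterols are high. Oxysterols activate the LXR receptors, which induce export genes such as Abca1 and Abcg1 and the ligase Mylip. Astrocytes release ApoE particles that neurons take up, and neurons clear cholesterol as 24S-hydroxycholesterol made by CYP46A1.

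Facts of the whole series bear on these values. Levels are RPKM (reads scaled by transcript length and by library size) after conditional quantile normalization, computed back from the deposited log2 values, and the depth behind them is unknown. Lcn2 itself stood between 66.7 and 82.7 RPKM in the wild-type LPS libraries and between 34.1 and 40.2 RPKM in the LPS libraries labelled Lcn2-/-, which is 52.0% of the wild-type level. Whether the allele leaves a transcript or the labels are wrong cannot be told apart here. For this reason those libraries are called "labelled Lcn2-/-" throughout. Saline replicate 4 labelled Lcn2-/-, the only sample whose title ends in a letter, stood apart from the other libraries: it had 17112 genes at 0.5 RPKM or more against 16372 to 16497 in the other 15 libraries, and lay at -0.885 on the second principal component, where the others lay between -0.130 and 0.186. In that library 23 of the 31 cholesterol genes fell outside the range of the other libraries of its group, 6 above and 17 below. The same count was 8 to 21 in the other 15 libraries, so by itself it sets this library little apart. The median absolute log2 difference from the mean of the rest of the group was 0.185, against 0.037 to 0.114 in the others. Values that saline replicate 4 moves are also given without it beside the genes concerned, though not for every gene.

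In wild-type saline brain the cholesterol genes spanned a wide range of levels. Apoe was the highest, with a geometric mean of 402 RPKM, followed by Hmgcs1 at 68.2, Cyp46a1 at 56.6, Insig1 at 28.0 and Pmvk at 24.3 RPKM. At the low end stood Lss, Mylip and Nr1h3, Mylip at 2.43 RPKM and Nr1h3 at 1.49 RPKM. The median of the 31 genes was 10.7 RPKM; 17 were at 10 RPKM or more and 14 were between 1 and 10. In that order 16 of the 30 pairs of neighbouring genes had overlapping ranges in the 4 wild-type saline libraries, so the order within such pairs was not resolved.

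**Figure D1:**
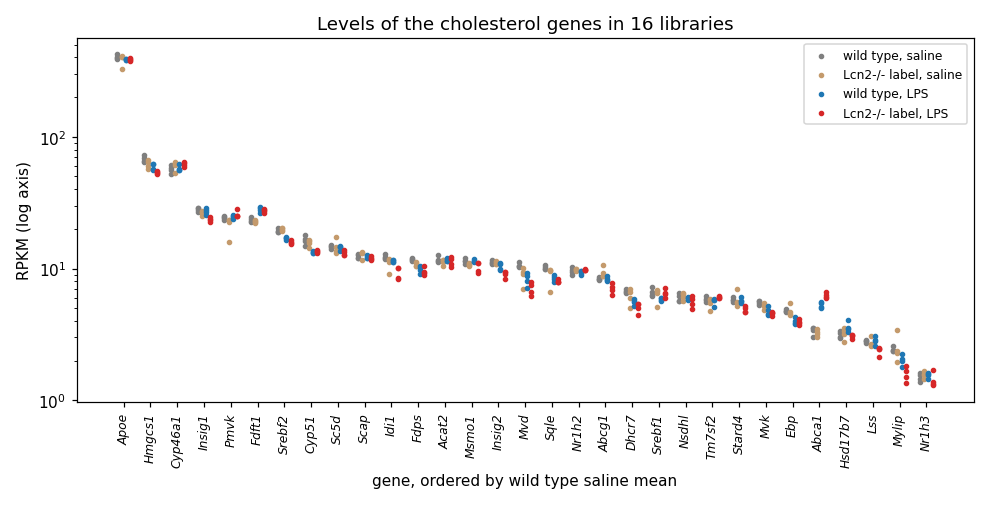
Level of each of the 31 cholesterol genes in each of the 16 libraries, in RPKM on a log axis, with genes ordered by their wild-type saline mean and points coloured by group. Apoe lies far above the rest, and the LPS points of Abca1 (5.05 to 6.69 RPKM) all lie above its saline points (3.04 to 3.56 RPKM).

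The promoters of genes that moved together or apart are shown because SREBP2 acts with the factor NF-Y at promoters of this pathway. RefSeq (GRCm38.p6) gave the 250 bases before the start for 26 of the 31 genes, including 15 of the 18 enzymes; no window was found for Sqle, Abcg1, Fdft1, Fdps and Stard4. Capitals mark the NF-Y motif CCAAT on either strand (ATTGG on the printed strand where reversed) and, in Hmgcs1, also a match to the sterol regulatory element core TCACNCCAC. Each is printed 5′ to 3′ on the strand of its gene. For Cyp51, Srebf2 and Insig1 the GENCODE gene begins upstream of the RefSeq start, so the end of the window, with the marked motif of Cyp51, lies inside the GENCODE gene. Hmgcs1 (chr13:119690101-119690350, plus strand), Cyp51 (chr5:4104698-4104947, minus strand) and Srebf2 (chr15:82147019-82147268, plus strand) were lower after LPS under both genotype labels, Insig1 (chr5:28071162-28071411, plus strand) was lower after LPS among the labelled Lcn2-/- libraries, and Abca1 (chr4:53159896-53160145, minus strand) was higher under both.
Hmgcs1: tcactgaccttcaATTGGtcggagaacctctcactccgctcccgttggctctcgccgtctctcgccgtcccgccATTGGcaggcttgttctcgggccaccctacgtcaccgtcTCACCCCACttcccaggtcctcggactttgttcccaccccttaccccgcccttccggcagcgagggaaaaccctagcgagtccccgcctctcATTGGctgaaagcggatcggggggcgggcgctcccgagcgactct
Cyp51: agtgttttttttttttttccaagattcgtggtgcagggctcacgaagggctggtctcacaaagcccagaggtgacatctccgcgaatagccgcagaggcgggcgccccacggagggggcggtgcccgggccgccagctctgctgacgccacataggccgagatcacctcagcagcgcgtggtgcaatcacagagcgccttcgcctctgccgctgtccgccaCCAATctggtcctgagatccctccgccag
Srebf2: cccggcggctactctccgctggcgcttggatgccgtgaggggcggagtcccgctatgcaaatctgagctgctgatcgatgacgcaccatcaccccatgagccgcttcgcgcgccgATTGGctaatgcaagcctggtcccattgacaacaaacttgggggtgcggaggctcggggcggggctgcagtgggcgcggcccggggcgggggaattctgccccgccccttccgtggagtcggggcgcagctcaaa
Insig1: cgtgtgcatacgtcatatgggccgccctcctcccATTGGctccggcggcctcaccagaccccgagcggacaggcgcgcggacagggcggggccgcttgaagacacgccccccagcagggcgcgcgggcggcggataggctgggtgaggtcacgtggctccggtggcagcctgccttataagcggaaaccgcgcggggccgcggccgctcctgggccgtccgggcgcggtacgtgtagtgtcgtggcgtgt
Abca1: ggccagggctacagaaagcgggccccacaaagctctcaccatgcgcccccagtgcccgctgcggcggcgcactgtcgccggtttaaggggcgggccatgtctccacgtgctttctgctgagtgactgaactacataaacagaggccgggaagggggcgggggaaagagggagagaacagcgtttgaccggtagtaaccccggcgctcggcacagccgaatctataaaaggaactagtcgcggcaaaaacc

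Hmgcs1 held 3 copies of the CCAAT motif and 1 copy of the sterol element core; Cyp51, Srebf2 and Insig1 held 1 CCAAT motif each, and Abca1 held none. Among the matched windows, CCAAT (either strand) was found in 20 of 26 genes and in 14 of 15 synthesis enzymes, all but Acat2, against 37.5% of 27025 genes with a window of this length. The GC box GGGCGG (either strand), a binding motif of Sp factors, was found in 22 of 26 genes and 14 of 15 enzymes, against 35.4% of all genes. TCACNCCAC (either strand) was found in Hmgcs1 alone, against 1.22% of all genes, and the E-box CACGTG in 6 of 26 genes against 6.86%. The LXR repeat, 2 copies of AGGTCA on the same strand with 4 bases between them, was in none of the 26 windows and in 0.0148% of all genes. A match is a description of the letters, not evidence of a bound site, and no motif searched contains another. Only these exact letters were searched, so a window without a match may still hold a variant of the element.

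LPS lowered part of the synthesis pathway in wild-type brain by modest amounts and raised 2 cholesterol genes. Of the 31 genes, 9 were lower and 2 were higher in limma's test at an adjusted p under 0.05, against 13.9% of all tested genes called lower, 11.4% called higher and 25.3% called in either direction. The 9 were 29% of the cholesterol genes. The median log2 fold change of all 31 genes was -0.04, beside -0.02 over all genes tested. The libraries of the injections did not overlap, in the lower direction, for 12 cholesterol genes (18.6% of all genes) and in the higher direction for 2 (13.8% of all genes). In bulk tissue, fewer cells of a type and less RNA per cell cannot be told apart.

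With the Lcn2-/- label, the same injection was followed by 15 genes called lower and 3 called higher, against 27.7% of all genes called lower, 20.7% called higher and 48.3% called in either direction. The 15 were 48.4% of the cholesterol genes. The median of the 31 genes was -0.15, beside -0.03 over all genes. Groups did not overlap for 10 genes in the lower direction (23.8% of all genes) and 4 in the higher direction (18.6%). Without saline replicate 4 labelled Lcn2-/- the counts were 16 lower and 3 higher with the label, where Lss was lost and Sqle and Scap were gained, and 11 lower and 2 higher in wild type. Over all 17349 genes that fit called 4879 lower with the label, against 4798 with every library, and 3442 lower in wild type, against 2409. The LPS comparisons of the 2 genotypes share no library. Called lower in both were Hmgcs1, Mvk, Mvd, Fdps, Cyp51, Ebp, Dhcr7 and Srebf2, and called higher in both were Abca1 and Fdft1; 12 genes were called in neither.

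**Figure D2:**
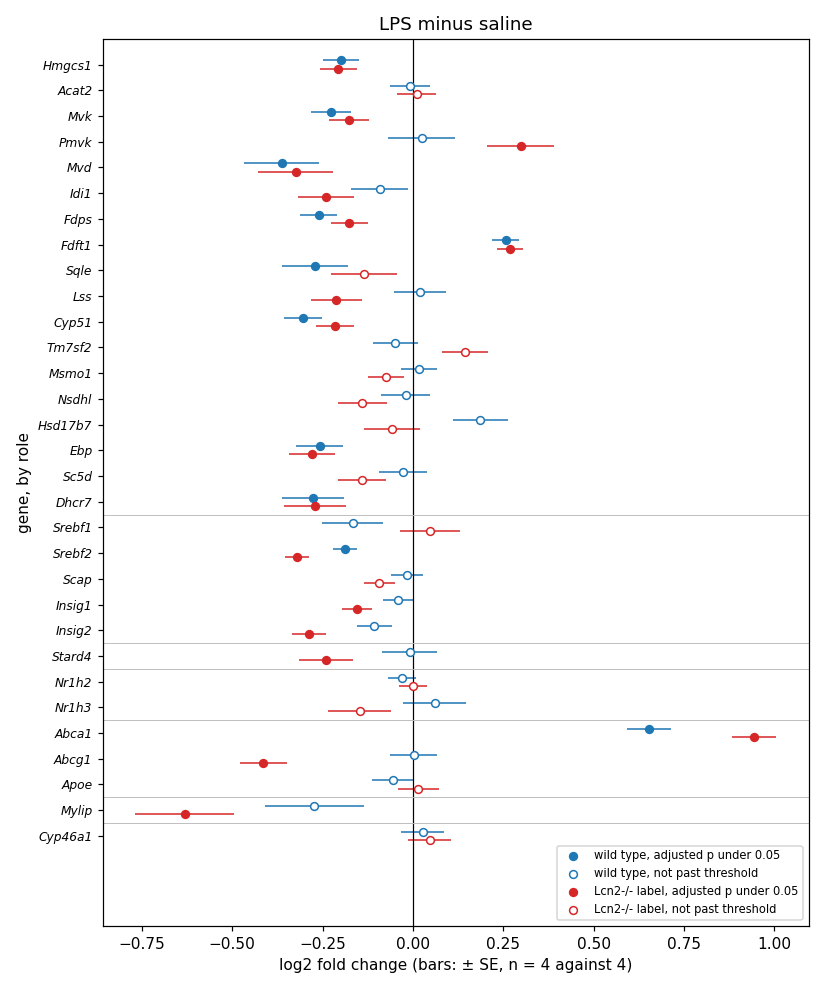
Log2 fold change of LPS against saline for each cholesterol gene, in wild type (blue) and labelled Lcn2-/- (red) brains, with bars of ± SE from the limma fit (n = 4 against 4) and filled points for an adjusted p under 0.05. Most enzyme estimates lie to the left of 0, Fdft1 and Abca1 lie to the right in both genotypes, and Abcg1 and Mylip lie furthest left in the labelled Lcn2-/- brains.

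The 7 enzymes from acetoacetyl-CoA to farnesyl diphosphate gave 4 lower calls in wild type and 5 lower and 1 higher with the Lcn2-/- label. Hmgcs1, the cytosolic HMG-CoA synthase (ENSMUSG00000093930, chr13:119690379-119708260), stood at 69.5, 73.3, 64.9 and 65.6 RPKM in wild-type saline and at 56.2, 62.4, 57.5 and 61.8 RPKM in wild-type LPS libraries. Its labelled Lcn2-/- libraries stood at 66.3, 60.1, 64.8 and 57.2 RPKM after saline and at 52.5, 54.4, 53.4 and 54.6 RPKM after LPS. Every LPS library lay below every saline library of the same genotype, and Hmgcs1 fell by 0.20 ± 0.05 (SE; limma adjusted p = 0.0077) on the log2 scale in wild type and by 0.21 ± 0.05 (0.0034) with the label.

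Mvk, mevalonate kinase, fell by 0.23 ± 0.06 (limma adjusted p = 0.006) in wild type and by 0.18 ± 0.06 (0.015) with the label. Fdps, which joins isoprene units into farnesyl diphosphate, fell by 0.26 ± 0.05 (0.0012) and by 0.18 ± 0.05 (0.01). Mvd, which decarboxylates diphosphomevalonate, fell by 0.36 ± 0.10 (0.017) and by 0.33 ± 0.10 (0.018). These 3 enzymes were called lower in both genotypes, and the differences between their changes were not called (0.46 to 0.89). In wild type the call for Mvd was lost without LPS replicate 3 (adjusted p = 0.0595), and with the label it was lost without saline replicate 2 or LPS replicate 3 (0.0574 to 0.0645).

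Idi1, which isomerises isopentenyl diphosphate, stood at 11.75, 12.93, 12.26 and 11.95 RPKM in wild-type saline and at 11.3, 11.7, 11.6 and 11.3 RPKM in wild-type LPS libraries. The libraries labelled Lcn2-/- stood at 11.6, 11.8, 11.2 and 9.17 RPKM after saline and at 10.1, 8.42, 8.38 and 10.2 RPKM after LPS. Wild-type groups lay close together without overlap, while the low saline replicate 4 with the label lay inside the range of its LPS group. The log2 change was -0.09 ± 0.08 (limma adjusted p = 0.45) in wild type, and with the label Idi1 fell by 0.24 ± 0.08 (0.019), or by 0.32 (0.00057) without the low saline replicate 4. That call was lost without saline replicate 1, saline replicate 2, LPS replicate 2 or LPS replicate 3 of the labelled group (0.0553 to 0.0687).

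Pmvk, phosphomevalonate kinase, was the one enzyme of this stretch called higher, with the label only. It stood at 22.5, 23.5, 23.5 and 16 RPKM in saline and at 25.1, 25.2, 25.1 and 28.4 RPKM in LPS libraries labelled Lcn2-/-, against 23.4 to 25.1 RPKM in wild-type saline and 23.7 to 25.4 RPKM in wild-type LPS libraries. The labelled groups did not overlap, and the gap was widened by the low saline replicate 4 and the high LPS replicate 4. Its log2 change was 0.30 ± 0.09 (limma adjusted p = 0.015), and 0.16 (0.0045) without saline replicate 4; in wild type it was 0.02 ± 0.09 (0.9). The difference between the genotypes' LPS changes was 0.27 ± 0.13 (0.18), and 0.14 (0.12) without saline replicate 4. Acat2, the cytosolic thiolase that makes acetoacetyl-CoA, had log2 changes of -0.01 ± 0.05 (0.94) and 0.01 ± 0.05 (0.89).

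The 3 enzymes from farnesyl diphosphate to lanosterol moved in different directions. Fdft1, squalene synthase, which commits farnesyl diphosphate to sterols, stood at 22.7, 23.6, 24.8 and 22.9 RPKM in wild-type saline and at 28.0, 28.6, 26.5 and 29.1 RPKM in wild-type LPS libraries. Libraries with the Lcn2-/- label stood at 23.0, 23.2, 22.3 and 22.7 RPKM after saline and at 28.1, 27.6, 26.2 and 28.0 RPKM after LPS. All 8 LPS libraries lay above all 8 saline libraries. Fdft1 rose 1.19-fold in wild type (log2 0.26 ± 0.04, limma adjusted p = 6.9e-05) and 1.20-fold with the label (0.27 ± 0.04, 2.5e-05), and was the only enzyme called higher in both comparisons.

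Sqle, squalene epoxidase, an oxygen-dependent rate-controlling step, stood at 9.91, 9.91, 10.3 and 10.7 RPKM in wild-type saline and at 8.63, 8.35, 7.98 and 8.87 RPKM in wild-type LPS libraries. For the labelled Lcn2-/- libraries the levels were 9.63, 9.74, 9.69 and 6.69 RPKM after saline and at 7.92, 7.96, 7.92 and 8.33 RPKM after LPS. Apart from saline replicate 4 of the labelled group, which was the lowest of all 16 libraries, every saline library lay above every LPS library. Sqle fell by 0.27 ± 0.09 (limma adjusted p = 0.039) in wild type, and with the label its log2 change was -0.14 ± 0.09 (0.23). Without that replicate 4, the change with the label was -0.27 (4.5e-05) and the wild-type adjusted p was 2.9e-05. The wild-type call was lost when any 1 of the 8 wild-type libraries was left out (0.0522 to 0.0977), with no mean trend in the fit, or with GC and length trends removed (0.0513 to 0.0529).

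Lss, lanosterol synthase, stood at 2.81, 2.87, 2.81 and 2.71 RPKM in wild-type saline and at 2.84, 3.08, 2.59 and 2.86 RPKM in wild-type LPS libraries, which overlapped. Labelled Lcn2-/- libraries stood at 2.58, 2.65, 2.70 and 3.10 RPKM after saline and at 2.45, 2.45, 2.12 and 2.49 RPKM after LPS, without overlap. The log2 change was 0.02 ± 0.07 (limma adjusted p = 0.89) in wild type, and with the label Lss fell by 0.21 ± 0.07 (0.022). The latter call was lost without saline replicate 4 or LPS replicate 3 of the labelled group (0.0613 to 0.0827).

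Of the 8 enzymes from lanosterol to cholesterol, 3 were called lower in each genotype, namely Cyp51, Ebp and Dhcr7. Cyp51, the lanosterol 14-demethylase (ENSMUSG00000001467, chr5:4081145-4104746), stood at 14.8, 16.7, 18.0 and 16.2 RPKM in wild-type saline and at 13.22, 13.32, 13.02 and 13.53 RPKM in wild-type LPS libraries. The libraries labelled Lcn2-/- stood at 15.7, 16.5, 16.1 and 14.3 RPKM after saline and at 13.13, 13.53, 13.79 and 13.42 RPKM after LPS. The 8 LPS libraries lay within 13.02 to 13.79 RPKM, below all 8 saline libraries. Cyp51 fell by 0.30 ± 0.05 (limma adjusted p = 0.0004) in wild type and by 0.21 ± 0.05 (0.0033) with the label.

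Ebp, a sterol isomerase, fell by 0.26 ± 0.06 (limma adjusted p = 0.007) and by 0.28 ± 0.06 (0.0022). Dhcr7, which makes cholesterol from 7-dehydrocholesterol, fell by 0.28 ± 0.09 (0.026) and by 0.27 ± 0.09 (0.017). The wild-type call for Dhcr7 was lost without saline replicate 2 or 3 or LPS replicate 1 or 3 (0.052 to 0.0733), and the labelled call without saline replicate 2 or 3 or LPS replicate 1 (0.0506 to 0.0599). The other 5 enzymes of this stretch were not called in either genotype. Tm7sf2, a sterol reductase, had log2 changes of -0.05 ± 0.06 (0.65) in wild type and 0.14 ± 0.06 (0.07) with the label, and the latter passed the threshold without saline replicate 2 or 3 of the labelled group (0.0338 to 0.0475), whereas without saline replicate 4 it was 0.08 (0.21). Msmo1, the methyl sterol oxidase, had changes of 0.02 ± 0.05 (0.87) and -0.07 ± 0.05 (0.24).

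Nsdhl, the sterol dehydrogenase that acts on the demethylation intermediates, had log2 changes of -0.02 ± 0.07 (limma adjusted p = 0.89) in wild type and -0.14 ± 0.07 (0.1) with the label. Without saline replicate 2 or LPS replicate 4 of the labelled group, the change in Nsdhl passed the threshold (0.0355 to 0.0494). Hsd17b7, the partner ketoreductase, had changes of 0.19 ± 0.08 (0.09) and -0.06 ± 0.08 (0.55). Sc5d, the lathosterol desaturase, had changes of -0.03 ± 0.07 (0.83) and -0.14 ± 0.07 (0.09), the latter passing the threshold without saline replicate 3 of the labelled group (0.0234), whereas without saline replicate 4 it was -0.06 (0.29). Over the 18 enzymes, 8 were called lower and 1 higher in wild type, with a median of -0.07 and 13 estimates below 0, against 13.9% of all genes called lower and 11.4% higher. With the label, 9 were called lower and 2 higher, with a median of -0.16, against 27.7% of all genes called lower and 20.7% higher. Fitted with only the 2 groups compared, the calls with the label for Mvd, Idi1, Pmvk, Lss and Dhcr7, and for the sterol carrier Stard4, were lost (adjusted p of 0.0571 or more).

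**Figure D3:**
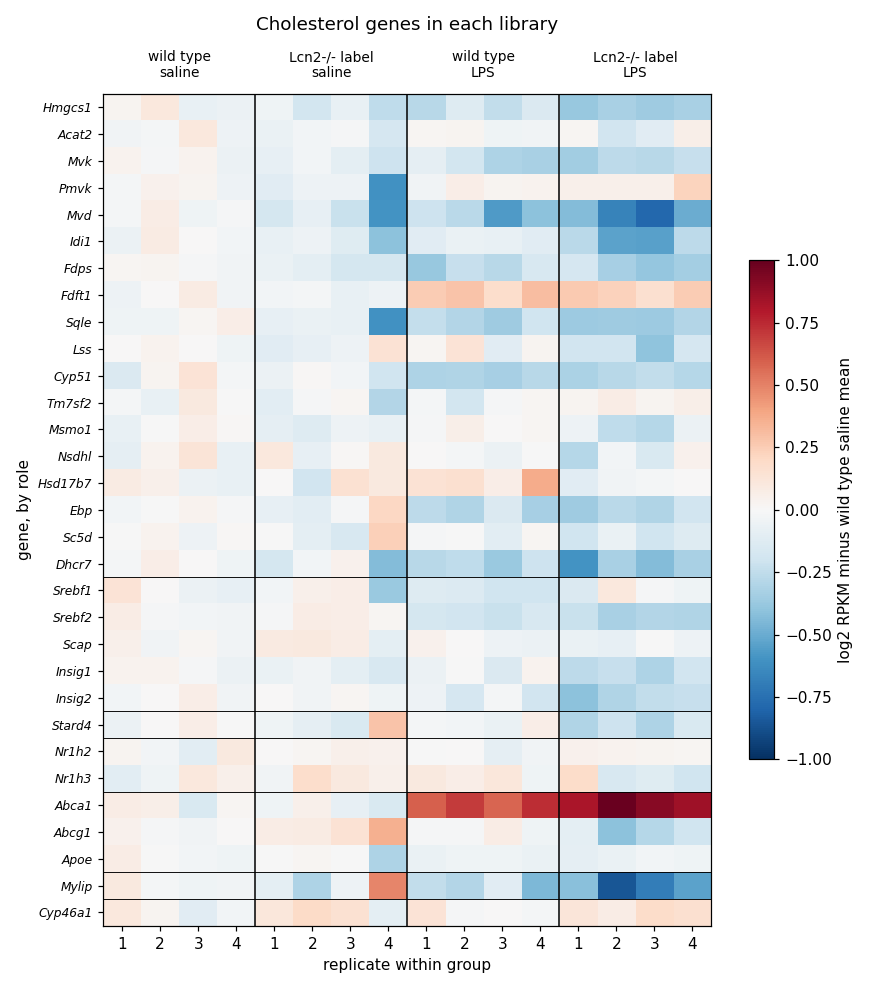
Difference of each library's log2 RPKM from the wild-type saline mean of the gene (colour scale from -1 to 1), with the 31 genes in rows by role and the 16 libraries in columns by group. Saline replicate 4 labelled Lcn2-/- shows low Pmvk, Mvd and Sqle and high Mylip and Abcg1 beside its group, and Abca1 is red in all 8 LPS libraries.

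Among the regulators, Srebf2, which encodes the transcription factor SREBP2 that drives the enzyme genes, was lower after LPS in both genotypes. Srebf2 (ENSMUSG00000022463, chr15:82147181-82205379) stood at 20.4, 19.2, 19.0 and 18.9 RPKM in wild-type saline and at 17.2, 16.9, 16.6 and 17.3 RPKM in wild-type LPS libraries. Libraries with the Lcn2-/- label stood at 19.2, 20.4, 20.3 and 19.6 RPKM after saline and at 16.6, 15.5, 15.8 and 15.7 RPKM after LPS. All 8 LPS libraries lay below all 8 saline libraries, and the spread within each group was small. Srebf2 fell by 12.2% in wild type (log2 -0.19 ± 0.03, limma adjusted p = 0.00053) and by 19.9% with the label (-0.32 ± 0.03, 1.4e-06). The difference between these changes was -0.13 ± 0.05 (0.085), and it passed the threshold without wild-type saline replicate 1 (0.0456).

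Insig1, which retains SCAP in the endoplasmic reticulum and is itself an SREBP target, stood at 28.7, 28.7, 27.8 and 26.8 RPKM in wild-type saline and at 26.9, 28.0, 25.4 and 28.7 RPKM in wild-type LPS libraries. For the labelled Lcn2-/- libraries the levels were 26.67, 27.27, 26.19 and 25.01 RPKM after saline and at 23.4, 23.9, 22.6 and 24.5 RPKM after LPS. Wild-type groups overlapped, and the labelled LPS libraries were the 4 lowest of all 16. Its log2 change was -0.04 ± 0.04 (limma adjusted p = 0.54) in wild type, and with the label Insig1 fell by 0.16 ± 0.04 (0.0064). The difference between the changes was -0.11 ± 0.06 (0.22), so the genotypes were not shown to differ in their response.

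Insig2, the second SCAP-retaining protein, stood at 10.9, 11.2, 11.7 and 10.9 RPKM in wild-type saline and at 10.8, 9.95, 11.0 and 9.77 RPKM in wild-type LPS libraries. Labelled Lcn2-/- libraries stood at 11.2, 10.9, 11.3 and 10.9 RPKM after saline and at 8.38, 9.07, 9.39 and 9.5 RPKM after LPS. Again the labelled LPS libraries were the 4 lowest of all 16. The log2 change was -0.11 ± 0.05 (limma adjusted p = 0.12) in wild type, and with the label Insig2 fell by 0.29 ± 0.05 (0.00014), with a difference between the changes of -0.18 ± 0.07 (0.097).

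Srebf1, which encodes SREBP1 and mainly serves fatty acid genes, had log2 changes of -0.17 ± 0.08 (limma adjusted p = 0.17) in wild type and 0.05 ± 0.08 (0.67) with the label. Its wild-type groups did not overlap, with saline libraries between 6.22 and 7.24 RPKM and LPS libraries between 5.72 and 6.02 RPKM, and the wild-type change passed the threshold when saline replicate 4 labelled Lcn2-/- was left out of the fit (0.025). Scap, the escort protein, had changes of -0.02 ± 0.04 (0.85) and -0.09 ± 0.04 (0.089). Without that replicate 4 the change in Scap with the label was -0.14 (0.003). Stard4, a soluble carrier that moves sterols between membranes, stood at 5.54, 5.78, 6.04 and 5.77 RPKM in wild-type saline and at 5.72, 5.69, 5.52 and 6.07 RPKM in wild-type LPS libraries.

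With the label, Stard4 stood at 5.60, 5.44, 5.19 and 7.03 RPKM after saline and at 4.70, 5.01, 4.66 and 5.21 RPKM after LPS. The wild-type groups of Stard4 overlapped, and the labelled groups overlapped narrowly, at saline replicate 3 and LPS replicate 4. Its log2 change was -0.01 ± 0.08 (limma adjusted p = 0.95) in wild type, and with the label Stard4 fell by 0.24 ± 0.08 (0.016). The difference between the genotypes' changes was -0.23 ± 0.11 (0.17). Without the high saline replicate 4 of the labelled group the change with the label was -0.15 (0.023) and the difference was -0.14 (0.19).

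Abca1, the transporter that loads cholesterol and phospholipid onto apolipoproteins, showed the largest LPS change of the 31 genes in each genotype. Abca1 (ENSMUSG00000015243, chr4:53030787-53159895) stood at 3.56, 3.51, 3.04 and 3.43 RPKM in wild-type saline and at 5.11, 5.47, 5.05 and 5.62 RPKM in wild-type LPS libraries. The libraries labelled Lcn2-/- stood at 3.28, 3.5, 3.20 and 3.04 RPKM after saline and at 5.94, 6.69, 6.34 and 6.07 RPKM after LPS. The saline groups overlapped, while the LPS groups lay above them and apart from each other. Abca1 rose 1.57-fold in wild type (log2 0.65 ± 0.06, limma adjusted p = 7.6e-07) and 1.92-fold with the label (0.94 ± 0.06, 6.2e-09). The difference between these changes was 0.29 ± 0.09 (0.0503), just outside the threshold, and it passed the threshold in 10 of 26 alternative analyses (0.0255 to 0.101 over all of them). Among these were the fits without wild-type saline replicate 3, wild-type LPS replicate 4, or saline replicate 2 or LPS replicate 1 of the labelled group (0.0322 to 0.0491).

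Abcg1, a transporter that passes cholesterol to lipidated particles, did not follow Abca1. It (ENSMUSG00000024030, chr17:31057675-31117988) stood at 8.56, 8.27, 8.15 and 8.34 RPKM in wild-type saline and at 8.25, 8.27, 8.76 and 8.09 RPKM in wild-type LPS libraries. Libraries with the Lcn2-/- label stood at 8.79, 8.84, 9.19 and 10.6 RPKM after saline and at 7.77, 6.26, 6.84 and 7.24 RPKM after LPS. Wild-type groups overlapped, and with the label all 4 saline libraries lay above, and all 4 LPS libraries below, every wild-type library. The log2 change was 0.00 ± 0.07 (limma adjusted p = 0.99) in wild type, and with the label Abcg1 fell by 0.41 ± 0.07 (9.7e-05), or by 0.35 (1e-04) without saline replicate 4.

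The difference between the 2 genotypes' LPS changes in Abcg1 was -0.42 ± 0.09 (limma adjusted p = 0.016). Abcg1 was the one cholesterol gene called in this interaction test, lower with the label, against 4.92% of all genes called lower, 3.9% called higher and 8.82% in either direction. Without saline replicate 4 of the labelled group, its highest library, the difference was -0.35 (0.0093). The call held in each of the 26 alternative analyses (0.0025 to 0.0388).

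Apoe, which encodes the main apolipoprotein of brain lipoprotein particles, stood at 422, 402, 395 and 389 RPKM in wild-type saline and at 384, 389, 389 and 384 RPKM in wild-type LPS libraries. For the labelled Lcn2-/- libraries the levels were 402, 408, 402 and 325 RPKM after saline and at 378, 384, 395 and 389 RPKM after LPS. Apart from the low saline replicate 4, the libraries lay close together. The log2 changes were -0.06 ± 0.06 (limma adjusted p = 0.52) and 0.02 ± 0.06 (0.84), the latter -0.06 (0.0505) without saline replicate 4. Apoe ranked between 26 and 45 among all genes in the libraries and took only 8 distinct values in 16 libraries.

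The LXR receptors themselves were not called. Nr1h2 (LXR beta) had log2 changes of -0.03 ± 0.04 (limma adjusted p = 0.63) in wild type and 0.00 ± 0.04 (1) with the label, and Nr1h3 (LXR alpha) had changes of 0.06 ± 0.09 (0.68) and -0.15 ± 0.09 (0.17). Nr1h3 passed the threshold with the label when LPS replicate 1 of that group was left out, at -0.23 (0.0228).

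Mylip, the E3 ligase (IDOL) that marks lipoprotein receptors for degradation and is an LXR target, stood at 2.60, 2.40, 2.36 and 2.38 RPKM in wild-type saline and at 2.05, 1.99, 2.25 and 1.79 RPKM in wild-type LPS libraries. Labelled Lcn2-/- libraries stood at 2.27, 1.96, 2.35 and 3.41 RPKM after saline and at 1.82, 1.35, 1.51 and 1.68 RPKM after LPS. LPS libraries lay below saline libraries of the same genotype without overlap in both cases. Its log2 change was -0.27 ± 0.14 (limma adjusted p = 0.17) in wild type, and with the label Mylip fell by 0.63 ± 0.14 (0.0014), or by 0.47 (0.0012) without the high saline replicate 4. The wild-type change passed the threshold without saline replicate 4 labelled Lcn2-/- in the fit (0.0327), and the difference between the changes was -0.36 ± 0.19 (0.24), or -0.20 (0.36) without that replicate. Abca1 and Mylip thus lay on opposite sides of 0 in both genotypes.

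Cyp46a1, the neuronal cholesterol 24-hydroxylase, stood at 60.9, 57.8, 52.4 and 55.5 RPKM in wild-type saline and at 62.3, 56.0, 56.6 and 55.8 RPKM in wild-type LPS libraries. The libraries labelled Lcn2-/- stood at 61.0, 64.5, 62.8 and 52.9 RPKM after saline and at 61.6, 59.5, 64.3 and 63.0 RPKM after LPS. The groups overlapped, with log2 changes of 0.03 ± 0.06 (limma adjusted p = 0.81) and 0.05 ± 0.06 (0.54).

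**Figure D4:**
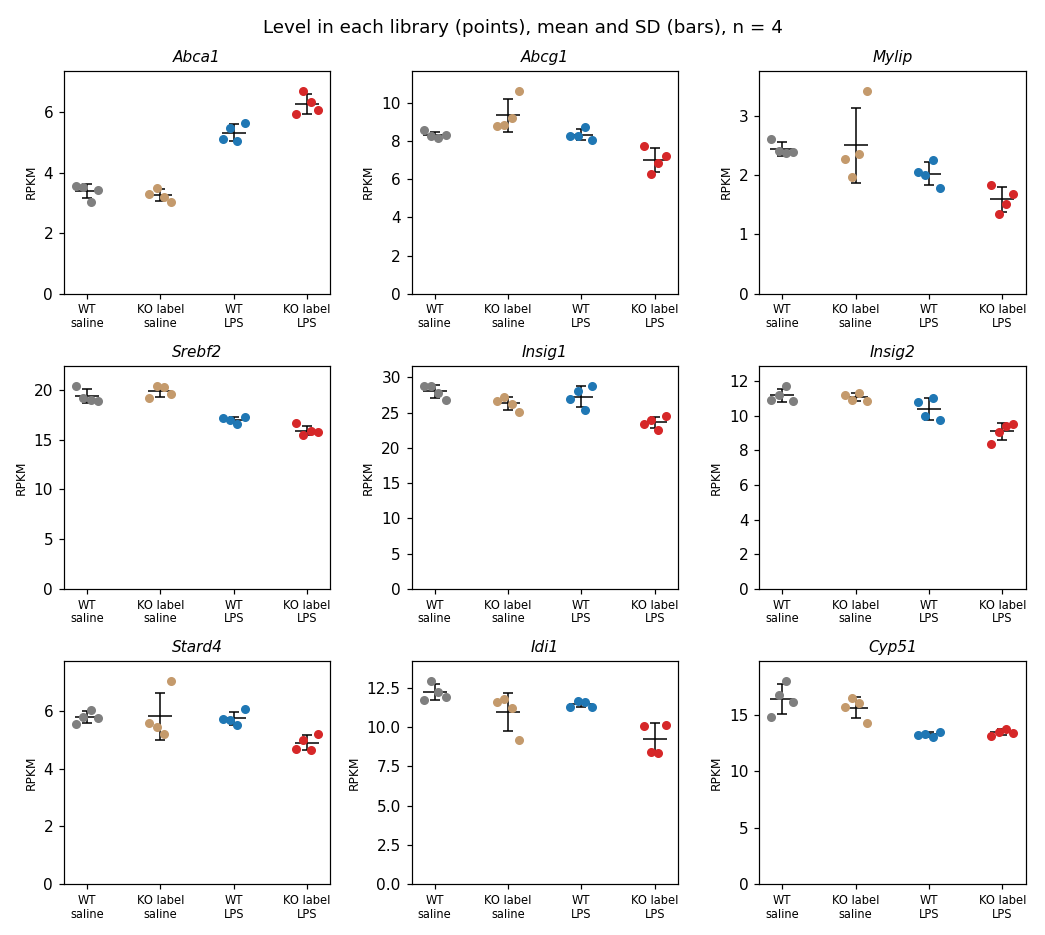
Level in RPKM of 9 cholesterol genes in each library (points), with the mean and SD of each group (bars, n = 4) and axes that start at 0. Abca1 rises in both LPS groups and Srebf2 and Cyp51 fall in both, while the labelled Lcn2-/- LPS libraries (red) are the lowest for Insig1, Insig2 and Abcg1.

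Beside these changes, some markers of brain cell types also moved with LPS, and their part in the results was not tested. Here and in the following marker paragraphs, counts stand against 11.4% of all genes called higher and 13.9% lower in wild type. With the label these shares were 20.7% higher and 27.7% lower, and the neuronal counts with the label lay near them. The summed level of 8 microglial markers was 79.2 to 83.4 RPKM in wild-type saline and 56.8 to 65.3 RPKM in wild-type LPS libraries, and 75.8 to 85.8 against 56.8 to 63.6 RPKM with the label; 6 of the 8 markers were called lower in wild type, and 7 lower and 1 higher with the label. The summed level of 7 endothelial markers was 88.6 to 96.6 against 62.6 to 69.6 RPKM in wild type and 80.8 to 90.1 against 59.6 to 67.5 RPKM with the label, with 3 lower and 2 higher calls and with 4 lower and 1 higher. Markers of astrocytes, a main source of brain ApoE particles, summed to 515.7 to 530.8 against 552.3 to 582.3 RPKM in wild type and 503.7 to 532.0 against 545.2 to 559.3 RPKM with the label, with 4 of 9 called higher in each.

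Oligodendrocyte markers, from the cells that make myelin, summed to 990.0 to 1091.9 against 963.7 to 1036.3 RPKM in wild type and 963.8 to 1011.5 against 946.7 to 1018.2 RPKM with the label, with 1 of 10 called higher and 4 lower in each genotype. Markers of oligodendrocyte precursors summed to 70.4 to 83.0 against 69.8 to 78.9 RPKM in wild type (1 of 5 higher, 3 lower) and 68.5 to 81.6 against 72.8 to 90.1 RPKM with the label (1 lower). Neuronal markers summed to 1052.3 to 1113.1 against 1088.3 to 1112.8 RPKM in wild type and 1067.4 to 1092.9 against 1057.9 to 1106.3 RPKM with the label, with no call among 10 in wild type and 2 higher and 2 lower with the label.

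Choroid plexus markers summed to 11.3 to 12.2 against 8.32 to 10.2 RPKM in wild type, with 2 of 6 called lower, and to 11.1 to 20.6 against 8.77 to 10.3 RPKM with the label, with 4 called lower. Neutrophil markers summed to 2.88 to 9.11 against 10.7 to 17.3 RPKM in wild type and 4.84 to 7.28 against 10.9 to 28.0 RPKM with the label, with 3 of the 5 tested of 8 called higher in each. Monocyte and macrophage markers summed to 9.98 to 11.3 against 7.23 to 8.73 RPKM in wild type and 9.20 to 11.2 against 6.56 to 8.76 RPKM with the label; of the 4 tested of 6, 2 were called higher and 1 lower in wild type and 2 lower with the label. Levels computed from log2 values cannot be 0, and the markers that were not tested did not pass the filter on low values. All of these sums include untested markers and weigh the highest genes most, so they are not levels of a cell type. In wild type the monocyte and macrophage sum fell although the median log2 change of its tested markers was 0.25.

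After LPS, several cholesterol genes were lower in labelled Lcn2-/- than in wild-type brain. Idi1, Lss, Msmo1, Insig1, Insig2, Stard4 and Abcg1 were called lower, and Abca1 was called higher. These 7 were 22.6% of the cholesterol genes, against 8.74% of all genes called lower, 7.04% called higher and 15.8% in either direction. Groups did not overlap for 9 genes in the lower direction (14.7% of all genes) and 3 in the higher direction (13.3%). The median of the 31 genes was -0.09, beside -0.01 over all genes. Beside this comparison, the 4 LPS libraries labelled Lcn2-/- lay further along the first principal component, which separates LPS from saline, at 0.312 to 0.337 against 0.148 to 0.195 in wild-type LPS libraries; what this shift contributes was not tested. Nor was the part of cell-type markers in it: with the label after LPS, 2 of 7 endothelial markers were called lower and 1 higher (median log2 -0.27), and 2 of 4 tested monocyte and macrophage markers lower (median -0.44). In each of the other marker lists at most 1 marker was called in each direction. Their medians were -0.01 in oligodendrocytes and in astrocytes, -0.02 in neurons and in choroid plexus, and -0.04 in microglia. For oligodendrocyte precursors the median was 0.11, and for neutrophils 0.47. The 7 lower calls became 4 without wild-type LPS replicate 2, 3 without labelled LPS replicate 2 and 2 without labelled LPS replicate 3. The comparison shares its LPS libraries with the LPS comparisons above.

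Insig1 was 13.3% lower with the label after LPS (log2 -0.21 ± 0.04, limma adjusted p = 0.0044), and Insig2 was 12.5% lower (-0.19 ± 0.05, 0.013). Both calls held in all 27 alternative analyses, and the libraries listed above do not overlap between the genotypes for either gene. The remaining 6 calls were each lost without some single library. Abca1 was 1.18-fold higher with the label (0.24 ± 0.06, 0.019), a call lost without wild-type LPS replicate 1 or 3 or labelled LPS replicate 2 or 3 (0.0541 to 0.0637). Abcg1 was 1.19-fold lower (-0.25 ± 0.07, 0.018), a call lost without wild-type LPS replicate 3 or labelled LPS replicate 2 or 3 (0.0541 to 0.0585).

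Idi1 was lower with the label after LPS by 0.31 ± 0.08 on the log2 scale (limma adjusted p = 0.015), with all 4 labelled libraries below all 4 wild-type libraries, and the call was lost without labelled LPS replicate 2 or 3 (0.0514 to 0.0571). Lss was lower by 0.26 ± 0.07 (0.024), a call lost without wild-type LPS replicate 1 or 2 or labelled LPS replicate 3 (0.0556 to 0.0857). Stard4 was lower by 0.23 ± 0.08 (0.047), and this call was lost in 13 of the 16 fits that leave out 1 library, all but those without labelled saline replicate 3, labelled saline replicate 4 and labelled LPS replicate 4 (0.0507 to 0.128), and also with no filter, with log2(RPKM + 1) or with no mean trend (0.0503 to 0.0726).

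Msmo1, which removes the methyl groups of lanosterol, stood at 11.27, 11.83, 11.44 and 11.51 RPKM in wild-type LPS and at 11.0, 9.55, 9.33 and 10.9 RPKM in labelled LPS libraries. Saline levels of Msmo1 were 10.83, 11.32, 11.93 and 11.45 RPKM in the wild type, against 10.7, 10.4, 11.0 and 10.8 RPKM with the label. The LPS groups did not overlap, and the saline groups overlapped. Msmo1 was lower with the label after LPS by 0.18 ± 0.05 (limma adjusted p = 0.027), a call lost without wild-type LPS replicate 2, 3 or 4 or labelled LPS replicate 2 or 3 (0.0515 to 0.0937).

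Saline replicate 4 labelled Lcn2-/- is no part of this comparison but enters the shared estimate of the spread. Without it, 13 cholesterol genes were called lower with the label after LPS and 1 was called higher; Hmgcs1, Mvd, Hsd17b7, Sc5d, Srebf2 and Mylip were added. Over all 17349 genes that fit called 2798 lower, against 1517 with every library, and 2376 higher, against 1222. With all libraries Hmgcs1 had a difference of -0.15 ± 0.05 (limma adjusted p = 0.062), Hsd17b7 of -0.23 ± 0.08 (0.054), Srebf2 of -0.10 ± 0.03 (0.065) and Mylip of -0.35 ± 0.14 (0.093). Hsd17b7 also passed the threshold without labelled saline replicate 2, labelled saline replicate 3 or wild-type LPS replicate 3, and Srebf2 without wild-type saline replicate 1 or labelled LPS replicate 1. Apoe, by contrast, had a difference of 0.00 ± 0.06 (1) and Cyp46a1 of 0.11 ± 0.06 (0.23).

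**Figure D5:**
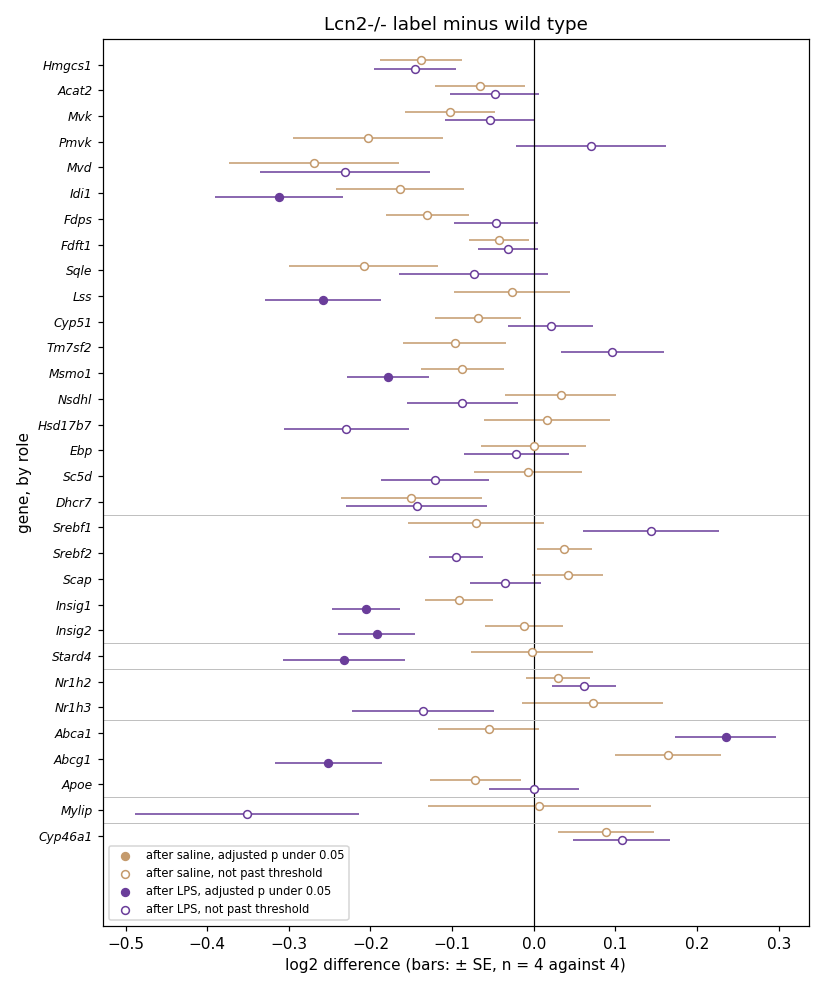
Log2 difference between labelled Lcn2-/- and wild-type brains for each cholesterol gene, after saline (tan) and after LPS (purple), with bars of ± SE from the limma fit (n = 4 against 4) and filled points for an adjusted p under 0.05. After LPS 8 points are filled, 7 to the left of 0 and Abca1 to the right, and after saline none is filled.

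After saline, no cholesterol gene was called between the genotype labels in limma's test, and 7 had an unadjusted p under 0.05. Over all genes, 0.0346% were called higher, 0.0115% lower and 0.0461% in either direction, that is 8 genes, and 1897 had an unadjusted p under 0.05. The groups did not overlap for Abcg1, higher with the label (2.84% of all genes), nor for Mvd, Fdps and Sqle, lower with the label (2.35%). With every library the largest differences were those of Mvd, -0.27 ± 0.10 (limma adjusted p = 0.41), Sqle, -0.21 ± 0.09 (0.44), and Pmvk, -0.20 ± 0.09 (0.45). In each of these 3 genes saline replicate 4 was the lowest of the labelled libraries, at 7.05 RPKM for Mvd, 6.69 RPKM for Sqle and 16 RPKM for Pmvk. Without it the differences were -0.16 for Mvd, -0.07 for Sqle and -0.07 for Pmvk. Several other genes then differed more than Sqle and Pmvk, among them Mylip (-0.15), Cyp46a1 (0.15), Fdps (-0.12), Abcg1 (0.10) and Hmgcs1 (-0.10). The median difference of the 31 genes was -0.06, beside -0.00 over all genes. This comparison shares its saline libraries with the LPS comparisons.

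Other genes of sterol handling, from lists kept apart from the 31, moved in both directions. Their counts stand against 11.4% of all genes called higher and 13.9% lower in wild type, and 20.7% higher and 27.7% lower with the label. For single genes of these lists, no other setting and no fit with a library left out is given. Their called differences between the changes therefore lack the check made for Abcg1. Of 11 further genes of SREBP processing and sterol-regulated degradation, 2 were called higher in wild type, and 3 higher and 2 lower with the label. Erlin1, which recruits degradation machinery to the sterol sensors, fell by 0.68 ± 0.07 (limma adjusted p = 2.6e-06) with the label and had a log2 change of -0.20 ± 0.07 (0.062) in wild type, with a difference between the changes called at an adjusted p of 0.016. Paqr3, a Golgi anchor of the SCAP-SREBP complex, fell by 0.37 ± 0.13 (0.024) and Vcp, the extraction ATPase, rose by 0.35 ± 0.09 (0.0062) with the label.

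Of 18 genes of sterol traffic and storage, 1 was called higher and 3 lower in wild type, and 3 higher and 7 lower with the label. Lipa, the lysosomal acid lipase that frees cholesterol from its esters, fell by 0.62 ± 0.07 (limma adjusted p = 7e-06) with the label and had a log2 change of -0.15 ± 0.07 (0.15) in wild type, and the difference between the changes was called (0.018). Soat1, which esterifies cholesterol for storage, fell by 0.23 ± 0.06 (0.0085) in wild type and by 0.41 ± 0.06 (5.2e-05) with the label. Scarb2, a lysosomal membrane protein, fell by 0.37 ± 0.10 (0.0086) with the label.

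Lipoprotein receptors and carriers gave 1 higher and 3 lower calls of 10 in wild type and 3 higher and 3 lower with the label. Apod, a lipocalin that carries lipids, rose by 1.20 ± 0.03 (limma adjusted p = 1.4e-12) and by 1.26 ± 0.03 (4.1e-13). Pltp, the phospholipid transfer protein, fell by 1.15 ± 0.06 (1.2e-09) and by 0.99 ± 0.06 (4.3e-09). Vldlr, a receptor for ApoE-containing lipoproteins, fell by 0.42 ± 0.05 (9.2e-06) and by 0.49 ± 0.05 (9.9e-07).

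Oxysterol enzymes showed the largest change of these lists, with 3 of 6 called higher and none lower in each genotype. Ch25h, which makes 25-hydroxycholesterol, an oxysterol that restrains SREBP processing, stood at 0.264 to 0.364 RPKM in wild-type saline and at 9.08 to 10.8 RPKM in wild-type LPS libraries, and at 0.379 to 0.779 against 7.29 to 10.3 RPKM with the label. Its log2 change was 4.97 ± 0.18 (limma adjusted p = 1.4e-11) in wild type and 4.09 ± 0.18 (6.9e-11) with the label, and the difference between them was -0.88 ± 0.26 (0.046). The wild-type saline levels of Ch25h lay below the 0.5 RPKM of the filter. It passed that filter through its LPS libraries, all at 7.29 RPKM or more. The called difference between the changes rests on saline values near this floor, so it is not read as a difference in response. Between the genotype labels Ch25h differed by 0.74 ± 0.18 (limma adjusted p = 0.27) after saline and by -0.14 ± 0.18 (0.64) after LPS. Its values without saline replicate 4 labelled Lcn2-/- are not given here. Cyp7b1, which hydroxylates oxysterols further, rose by 0.30 ± 0.09 (0.017) and by 0.52 ± 0.09 (0.00015), and Hsd3b7, of bile acid synthesis, rose by 0.31 ± 0.04 (1.3e-05) and by 0.18 ± 0.04 (0.0013).

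The isoprenoid branch, which uses farnesyl diphosphate for prenylation and ubiquinone, gave 1 higher and 1 lower call of 10 in wild type and 2 of each with the label. Fnta, a subunit of the prenyltransferases, fell by 0.23 ± 0.05 (limma adjusted p = 0.0061) in wild type and had a log2 change of 0.03 ± 0.05 (0.72) with the label, Pggt1b, of geranylgeranyl transfer, fell by 0.49 ± 0.15 (0.016) with the label, and Pdss2, of ubiquinone synthesis, rose by 0.17 ± 0.07 (0.046) with the label. Of 15 fatty acid genes under SREBP1, 1 was called higher and 3 lower in wild type, and 2 higher and 7 lower with the label. Mid1ip1, an activator of acetyl-CoA carboxylase, fell by 0.56 ± 0.04 in both (3.2e-08 and 1.6e-08). Gpam, the mitochondrial glycerol phosphate acyltransferase, fell by 0.69 ± 0.14 (0.0007) with the label and had a change of 0.29 ± 0.14 (0.14) in wild type, with a called difference between the changes (0.009). Pnpla3, a lipid droplet lipase, fell by 0.56 ± 0.08 (2.1e-05) with the label and had a change of -0.19 ± 0.08 (0.071) in wild type, with a called difference (0.045).

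Of 9 further LXR-related genes 7 were tested, and 1 was called higher and 1 lower in wild type and 2 higher and 3 lower with the label. Smpdl3a, a phosphodiesterase induced by LXR, fell by 0.34 ± 0.04 (limma adjusted p = 2.9e-05) and by 0.29 ± 0.04 (6.9e-05). Rxra, a partner receptor of LXR, rose by 0.24 ± 0.05 (0.0039) and by 0.14 ± 0.05 (0.047), and Arl4c, a small GTPase, rose by 0.16 ± 0.05 (0.02) with the label.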

How the data were processed

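RNA-seq of 16 hemi-brain libraries was deposited by the authors as 1 table of log2 RPKM after conditional quantile normalization, as the name of the table states. The build is mm10, per the submitters' processing notes, while aligner, counter and annotation release were not given in the sources used here. Column names speak of gene counts, but values are not whole and can be negative, so no count test was used, and depth is unknown. 0 columns were left unused. Groups came from the labels. Symbols and positions came from GENCODE vM21, which matched 32695 of 33289 IDs.

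Genes with a log2 RPKM of at least -1 (0.5 RPKM) in at least 3 samples were tested (17349; 15940 removed). A group-means model over all 16 libraries was fitted with limma 3.58.1 in R 4.3.3 (empirical Bayes with a mean trend, two-sided, Benjamini-Hochberg over all genes tested in each comparison, threshold 0.05). The procedure was also run on simulated data with independent noise and no library that stood apart. That run does not bear on the effect of saline replicate 4 labelled Lcn2-/-, and its outcome is not given here. Contrasts compared LPS with saline within a genotype, the genotypes within an injection, and the LPS changes of both genotypes (interaction). Tables and figures were made with Python 3.11.15, pandas 2.3.3 and matplotlib 3.10.9. RPKM values in the text are 2 to the power of the log2 values.

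The 31 genes and the other lists were chosen with earlier results of these data known. Every one of the 31 was described; each library's value was given for those called between genotypes or in the interaction, those called after LPS with an absolute log2 change of at least 0.5, and Srebf2, Insig1, Abca1, Apoe and Cyp46a1. The library values of Hmgcs1, Pmvk, Fdft1, Sqle and Cyp51 were added after their values were seen. From each other list the 3 called genes with the largest change were named. Alternatives were 11 other settings and each library left out in turn. No set of genes was tested as a set.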

Additional observations from a re-analysis of the deposited data

Results flagged for a closer look

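Among 124 combinations of a cholesterol gene and a group, 9 (7.3%) had 1 library far from the other 3 (a gap, as a share of the group's range, above Dixon's 95% critical value for 4 samples); chance flags about 1 in 20 groups. Of these, 4 lay in saline replicate 4 labelled Lcn2-/-, all lower than the rest of the group: Pmvk at 16 RPKM (22.5 to 23.5 in the others), Sqle at 6.69 RPKM (9.63 to 9.74), Scap at 11.6 RPKM (13.1 to 13.3) and Apoe at 325 RPKM (402 to 408). In LPS replicate 4 labelled Lcn2-/-, Pmvk stood at 28.4 RPKM (25.1 to 25.2 in the others) and Sqle at 8.33 RPKM (7.92 to 7.96). In LPS replicate 3 labelled Lcn2-/-, Lss stood at 2.12 RPKM (2.45 to 2.49). In wild-type saline replicate 1, Mylip stood at 2.60 RPKM (2.36 to 2.40). In wild-type LPS replicate 1, Cyp46a1 stood at 62.3 RPKM (55.8 to 56.6). The LPS change in Abcg1 differed between the genotype labels by -0.42 on the log2 scale, in the interaction test of limma.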

How the results depend on the processing

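Each comparison was refitted under 11 other settings (10 for the interaction) and without each of the 16 libraries, and no called cholesterol gene changed sign. Of 4154 refitted values of single genes, 4029 stayed on their side of the threshold, 66 lost and 59 gained a call. With 1 library left out, the number of cholesterol genes called lower ranged from 6 to 11 (LPS in wild type) and 2 to 13 (label after LPS), the number called higher from 0 to 1 (label after LPS), and in the interaction 0 to 1 were called higher and 1 to 2 lower. The genes called lower with the label after LPS numbered 11 with only the groups compared and 13 with array weights, which also gave 3 higher. Abca1 was the 1 gene called higher in the interaction with the stricter filter, log2(RPKM + 0.5), log2(RPKM + 1), quantile normalization, GC and length trends removed, or array weights, which also gave 3 called lower. Over all genes, no filter gave 11480 lower in wild type and 13898 lower with the label after LPS, and for the interaction 418 higher and 487 lower; higher calls were then 16.8% and 22.0% of the LPS calls, against 45.1% and 42.8%. Array weights gave 3669 lower in wild type, 2393 higher and 2902 lower for the label after LPS, and 1383 and 1647 for the interaction; only the groups compared gave 2088 and 2305 for the label after LPS. With every library and the stated filter these counts were 2409 lower in wild type, 4798 lower with the label, 1222 higher and 1517 lower for the label after LPS, and 677 and 853 for the interaction. With 1 library left out they ranged over 725 to 2376 higher and 807 to 2798 lower for the label after LPS, both highest without saline replicate 4 labelled Lcn2-/-, and over 348 to 1046 and 379 to 1221 for the interaction. For the label after saline (6 and 2), array weights gave 27 and 7, no filter and only the groups compared each 2 and 1, and leaving out 1 library 2 to 9 and 1 to 4. The causes were not tested. No paired analysis was possible because the labels give the groups no shared replicate numbers. Unknown depth leaves counting error unmeasured, most for low genes such as Nr1h3.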
